A study of Mus musculus with 3 samples.

Results

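Primary progenitors of the embryonic mouse retina grown in explant culture were examined. Of the 5607 single cells in the explant library, 1691 (30.2%) carried the authors' annotation for these progenitors, and all of them were taken. The whole series held 14611 cells in 3 libraries, of which the other 2 came from retinas of an *Sstr2* allelic series (+/+, +/- and -/-) of strain C57BL/6 / CD1 at P0 and P14. Retinas of wild-type CD1 mice were dissected at embryonic day 14 and cultured on membranes for 6 days, to an age equal to P0, with 0, 5, 50 or 500 nM of a small molecule agonist of the somatostatin receptor Sstr2. All 4 groups thus shared genotype, strain, age and culture, and differed in agonist dose. Each dose had 2 samples, 8 in all. A sample is called an explant here, but the number of retinas behind it was not stated, nor whether samples of 1 dose came from separate animals, so p-values measure only the spread between these samples. Cells were tagged by sample with lipid-anchored oligonucleotides (MULTI-seq) and sequenced as a single droplet library, in which each transcript is counted once by its unique molecular identifier (UMI).

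Primary retinal progenitors are the multipotent, dividing cells of the developing retina. They are kept in this state in part by Notch signaling, in which ligands on neighboring cells activate Notch receptors and thereby the repressors Hes1 and Hes5. As they leave it, they pass through a neurogenic progenitor state marked by proneural factors such as Atoh7 and Neurog2, from which neurons are born. Late in development, primary progenitors also begin to express genes of Müller glia, the last cell type they produce.

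The explants held 195 and 122 primary progenitors at 0 nM, 83 and 358 at 5 nM, 127 and 234 at 50 nM, and 203 and 369 at 500 nM. Their UMIs, summed per explant, ran from 382029 in the first explant at 5 nM to 1640797 in the second, so the first was the shallowest sample of the set. The median progenitor held between 4053 UMIs, in the second explant at 500 nM, and 4805, in the first at 5 nM. The explants differed in the sex of their cells. *Xist*, transcribed from the inactive X chromosome of female cells, was found in 60.5% and 59.8% of progenitors at 0 nM, 97.6% and 62.8% at 5 nM, 57.5% and 56.0% at 50 nM, and 98.5% and 97.6% at 500 nM. Y-linked transcripts were found in 29.7% and 32.0% of progenitors at 0 nM and in 0.985% and 1.08% at 500 nM. At 0 nM, 104 and 61 progenitors held *Xist* without Y-linked UMIs, and 44 and 27 held the reverse. The second explant at 5 nM (192 and 66) and both at 50 nM (65 and 32, 110 and 43) were mixed likewise. By the deposited assignment of cells, each of these samples held both sexes. Such a sample cannot be a single retina or come from a single animal. Both explants at 500 nM were almost wholly Xist-positive in their progenitors, while both at 0 nM were mixed, and the gene results at 500 nM were therefore also computed for *Xist*-positive cells without Y-linked UMIs. The doublet caller Scrublet marked 49 of the 1691 progenitors, of which 32 lay in the second explant at 500 nM. The explant and P0 libraries shared 9 cell barcode sequences. These libraries were prepared separately.

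Of the 5 markers given for these cells, 4 were higher in them than in each other type in every explant. Levels are given in CPM, the UMIs of a gene scaled to the total of an explant's summed progenitors. *Ccnd1*, the D-type cyclin of retinal progenitors, had a mean of 2331 CPM ± 130 (SD, n = 8 explants), with the lowest explant at 2098, the median at 2347 and the highest at 2489, against 584 ± 126 in neurogenic progenitors. *Hes1* had 224 ± 40.7 against 25.4 ± 12.6 in neurogenic progenitors. *Sfrp2*, a secreted Wnt modulator, had 135 ± 24.4, and the growth factor gene *Fgf15* had 114 ± 24.8. Both were higher in progenitors than in each of the 4 other types in 8 of 8 explants. *Sox2*, a transcription factor of neural stem and progenitor cells, had 331 ± 30.4 CPM. This was no higher than in cells annotated as retinal ganglion cells (RGCs), at 317 ± 138, and it was higher in 4 of 8 explants. The paper states that its explants lacked viable RGCs, so RGC is used here as the deposited label. Under that label *mt-Co3*, a mitochondrial gene, had 37217 CPM against 11387 in primary progenitors. The ganglion cell genes *Isl1*, *Pou4f1* and *Gap43* had 910, 429 and 1334 CPM there, against 9.27, 8.75 and 44.1 in primary progenitors. In annotated amacrine cells these 3 genes had 11.7, 5.51 and 127 CPM. *Tfap2b* and *Gad2*, genes of amacrine cells, had 432 and 14.3 CPM under the RGC label, against 1051 and 334 in annotated amacrine cells. The identity of these cells was not tested. The annotation was based on clusters of the explants' own cells, so levels between types are descriptions without a test.

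Counted per cell, *Ccnd1* was detected in 95.9% of primary progenitors and in 21.7% of photoreceptors, a type that has left the cell cycle. The shares were 49.1% and 2.47% for *Hes1*, and 30.6% and 1.81% for *Sfrp2*. The median UMI count was 4548 in progenitors and 2642.5 in photoreceptors, so these shares are not matched for depth.

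**Figure D1:**
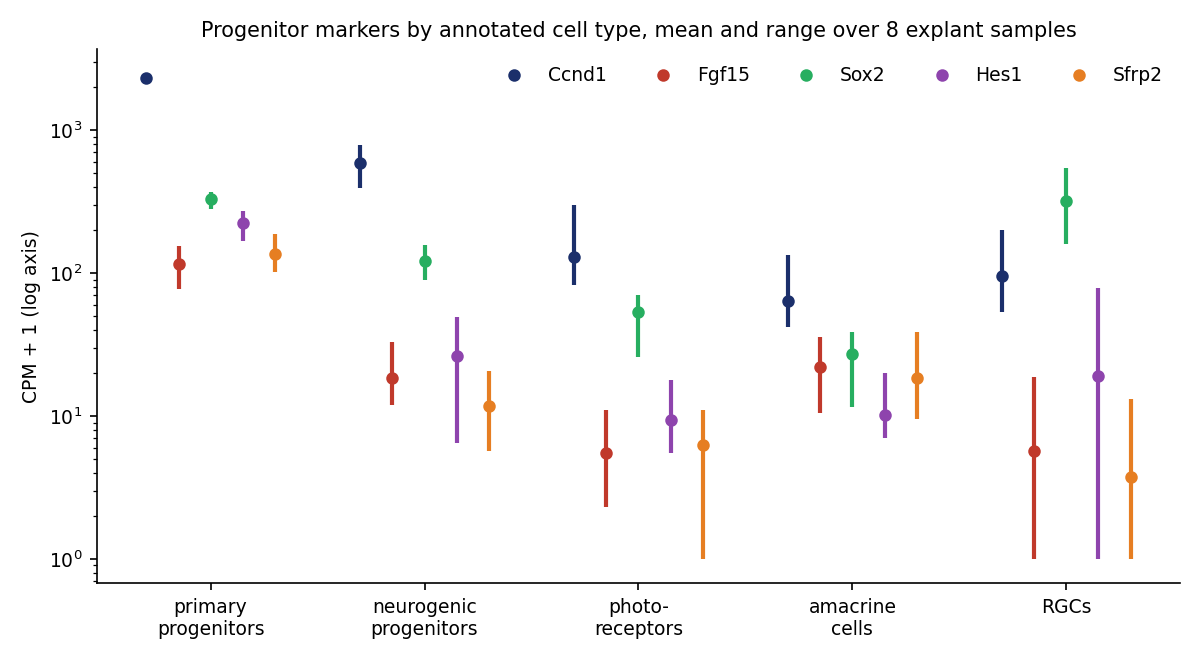
Levels of the 5 progenitor markers in each of the 5 annotated cell types, as CPM plus 1 on a log axis. Points are means and bars the range over the 8 explants, and the mean of Ccnd1 falls from 2331 CPM in primary progenitors to 584 in neurogenic progenitors, whereas the range of Sox2 overlaps between primary progenitors and RGCs.

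Of 5029 genes with at least 50 CPM in some type, 273 (5.43%) were higher in primary progenitors than in all 4 other types in each explant, and 82 (1.63%) were lower. The gene furthest above the others was *Rlbp1*, which encodes the retinaldehyde-binding protein of Müller glia, with 64.9 CPM ± 17.3 against 1.08 ± 2.10 in neurogenic progenitors. *Cp* (ceruloplasmin), *Col9a1* (a collagen IX chain), *Tagln2* and *Ass1* (an enzyme of arginine synthesis) followed, at log2 ratios of 4.17, 4.05, 3.86 and 3.48 to the next highest type. *Cox4i2*, *Hs3st4*, *Spon1*, *Hes1*, *Id3*, *Crym*, *Sfrp2*, *Ttyh1*, *Sparc* and Gm26669 completed the 15 highest. At the other end, *Myt1*, *Ntm*, *Gdap1l1*, *Tubb3*, *Lrp11*, *Lmo1*, *Erc2*, *Srrm4* and *Unc13a* were among the 10 lowest. *Tubb3*, the neuronal tubulin, had 54.8 CPM in primary progenitors and 525 in neurogenic progenitors.

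Set against neurogenic progenitors alone, 612 of the 5029 genes (12.2%) were higher in primary progenitors in 8 of 8 explants, and 738 (14.7%) were lower. All 13 neurogenic genes that reached 50 CPM were lower, among them *Atoh7* (30.4 CPM ± 35.8 against 1465 ± 292) and *Btg2* (191 ± 31.7 against 1007 ± 181). Of the 12 glial and late progenitor genes, 11 were higher. They included the glutamate transporter *Slc1a3* (184 CPM ± 13.0 against 20.0 ± 6.09) and the gliogenic factor *Nfix* (71.1 ± 10.6 against 17.1 ± 4.05). *Aqp4*, a water channel of mature Müller glia, stood at 0.287 CPM.

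In the Notch pathway, the ligands *Dll1* (61.9 CPM ± 12.4 against 133 ± 29.6), *Dll3* (53.0 ± 12.9 against 285 ± 50.7) and *Dll4* (5.17 ± 2.98 against 53.2 ± 18.9) were lower in primary than in neurogenic progenitors in 8 of 8 explants, as were the ligand and receptor glycosyltransferase *Mfng* and the pathway's DNA-binding factor *Rbpj*. *Lfng*, a glycosyltransferase of the same family as *Mfng*, was higher in 8 of 8 (30.1 ± 3.48 against 15.1 ± 5.43). The Notch targets *Hes1* and *Nrarp* (159 ± 14.8 against 59.8 ± 6.32) were higher in 8 of 8 as well, and so were, at lower levels, *Hey1*, *Hey2*, *Heyl* and the receptors *Notch2* (17.0 ± 6.55 against 2.40 ± 3.62) and *Notch3* (7.90 ± 3.59 against 0.799 ± 1.14). The receptor *Notch1* (237 ± 24.5 against 267 ± 45.2) and the target *Hes5* (1733 ± 370 against 1420 ± 316) overlapped between the types. Of the 7 FGF and Wnt genes that reached 50 CPM, 5 were higher, including *Fgf9* and the FGF inhibitor *Spry2*, and of the 4 Hedgehog genes 3 were higher, including the co-receptors *Gas1* and *Cdon*. For DNA replication, 7 of 22 genes were higher, among them the helicase subunits *Mcm2*, *Mcm3* and *Mcm6*. For G2 and mitosis, 1 of 18 was higher and 1 was lower.

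The receptor that the agonist addresses was low in these cells. *Sstr2*, at chr11:113619342-113626028 (GRCm38, GENCODE M21), had 35 UMIs over all 1691 primary progenitors. The CPM values were 1.13 and 8.94 at 0 nM, 2.62 and 3.66 at 5 nM, 0 and 0.929 at 50 nM, and 3.24 and 12.0 at 500 nM. The value of 0 came from 554412 UMIs and allows up to 5.41 CPM, which is 3 counts, for counting error only. The mean of *Sstr2*, 4.07 ± 4.23 (SD, n = 8), compared with 113 ± 35.5 in neurogenic progenitors. It was 8.13 ± 3.24 in photoreceptors, 8.21 ± 6.81 in amacrine cells and 0.606 ± 1.71 in cells labelled RGCs. Under the RGC label it rested on 1 UMI, and primary progenitors were higher in 7 of 8 explants. Thinned to 3000 UMIs a cell, 1.16% of progenitors and 1.87% of photoreceptors held an *Sstr2* UMI, which is 1.60% and 1.99% unthinned. Most photoreceptors, with a median of 2642.5 UMIs, were too shallow for the thinned share. *Gnai2*, an inhibitory G protein alpha subunit through which such receptors can act, was by contrast abundant. Its levels were 948, 902, 927, 887, 914, 873, 915 and 912 CPM from 0 to 500 nM, with a log2 difference of -0.07 (SE 0.10) at 500 nM and adjusted p = 0.893 by edgeR.

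The share of progenitors that were primary, among primary and neurogenic progenitors together, was compared by dose. It was 63.7% and 65.2% at 0 nM, 68.6% and 72.3% at 5 nM, 73.4% and 71.1% at 50 nM, and 70.5% and 77.8% at 500 nM. Both explants at 0 nM lay below the other 6, while the values at 5, 50 and 500 nM overlapped. The mean rose from 64.5% ± 1.07 (SD, n = 2) at 0 nM to 74.2% ± 5.21 at 500 nM. With dose on the scale log10(nM + 1), the share had a Pearson r of 0.80 over 8 explants (two-sided exact permutation p = 0.0171, adjusted p = 0.0341 over 2 relations, the other being the share of all cells). The rank correlation (Spearman's rho) came to 0.73, with exact permutation p = 0.0548 before and after adjustment. Without both explants at 500 nM, farthest from the median dose, r was 0.87 (exact permutation p = 0.0444) and rho 0.84 (exact permutation p = 0.0667). The relation no longer passed without the first explant at 0 nM (exact permutation p = 0.0587) or without the second at 500 nM (exact permutation p = 0.0794). On untransformed dose the relation did not pass either, with values given under the processing. The share of all cells did not pass on the log scale, with r of 0.65 (exact permutation p = 0.0782). The explants could not be split into batches, since they formed 1 library.

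**Figure D2:**
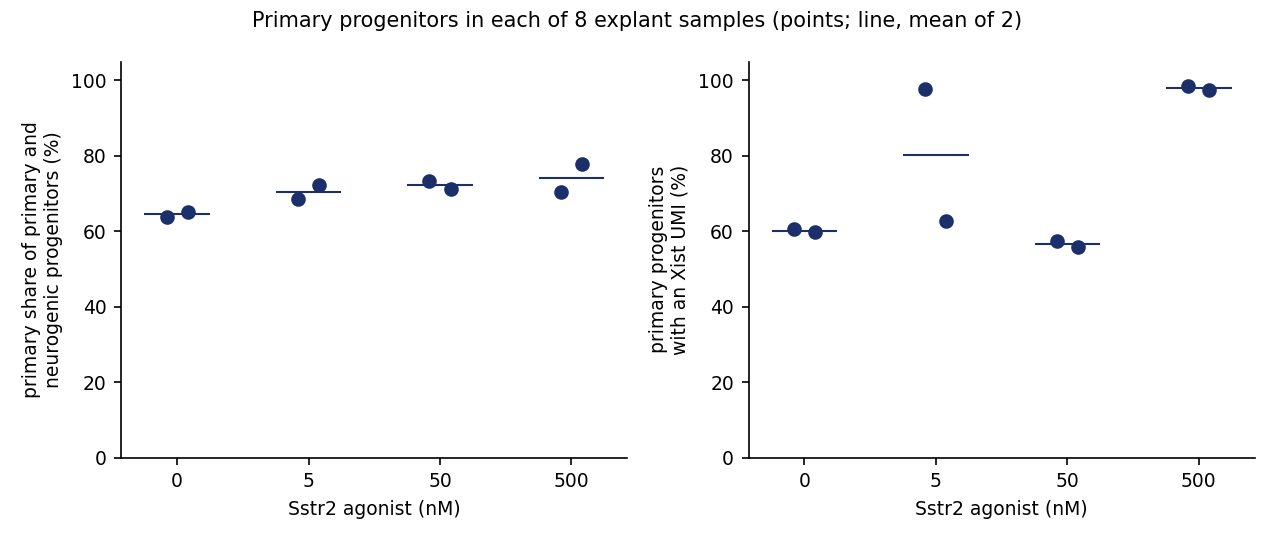
Percent of primary and neurogenic progenitors together that were primary, and percent of primary progenitors with an Xist UMI, for each explant (points) and as the mean of each dose (lines) against dose in nM. Both explants at 0 nM have the lowest primary share, and the 3 explants with nearly all cells Xist-positive are the first at 5 nM and both at 500 nM.

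Gene expression at each dose was compared with 0 nM on UMIs summed per explant, by edgeR's quasi-likelihood test over 8514 genes with Benjamini-Hochberg adjustment. A single fit served all 8 explants, and the comparisons share the explants at 0 nM. At 500 nM, 27 genes (0.317%) passed an adjusted p of 0.05, 18 higher (0.211%) and 9 lower (0.106%), and 735 had an unadjusted p under 0.05 (8.63%). Both explants at 500 nM were above both at 0 nM for 22.8% of genes and below for 14.9%. The 27 included 8 crystallins, the Y-linked *Ddx3y*, *Eif2s3y* and *Kdm5d*, and *Xist*, which are taken up below. Of the remaining 15, *Mki67*, *Cenpf*, *Ccna2*, *Kif23*, *Esco2*, *Gngt2*, *Atoh7*, *Ttc28* and *Hist1h2ap* were higher and *Hes5*, *Sat1*, *Gldc*, *Rlbp1*, *Crym* and *Cnp* were lower. At 50 nM and at 5 nM 1 gene each passed (0.0117%), with 443 (5.20%) and 337 (3.96%) at an unadjusted p under 0.05.

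Of the 24 genes of G2 and mitosis tested, 4 passed at 500 nM, all higher (*Mki67*, *Cenpf*, *Ccna2* and *Kif23*), and 16 had both explants above both at 0 nM. Their median log2 difference was 0.60, against 0.01 over all genes. At 50 nM none passed, 12 had an unadjusted p under 0.05 and 16 again had both explants higher, where 20.7% of all genes did, with a median of 0.34. At 5 nM none passed and the median was 0.07.

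*Mki67*, which encodes the proliferation antigen Ki67, had 146 and 166 CPM at 0 nM, 168 and 167 at 5 nM, 204 and 202 at 50 nM, and 230 and 344 at 500 nM. The explants at 50 and 500 nM all lay above those at 0 and 5 nM. The log2 difference at 500 nM was 0.84 (SE 0.16, adjusted p = 0.00236 by edgeR). *Cenpf*, a kinetochore protein, had 240 and 222 CPM at 0 nM, 259 and 210 at 5 nM, 292 and 289 at 50 nM, and 365 and 429 at 500 nM, a difference of 0.73 at 500 nM (SE 0.14, adjusted p = 0.00236 by edgeR). *Ccna2*, the S and G2 phase cyclin A2, had 65.6 and 78.7 CPM at 0 nM, 73.3 and 67.0 at 5 nM, 110 and 89.2 at 50 nM, and 117 and 143 at 500 nM. Again no explant at 500 nM overlapped with 0 nM, and the difference was 0.83 (SE 0.17, adjusted p = 0.0101 by edgeR). *Kif23*, a kinesin of cytokinesis, had 30.5 and 19.7 CPM at 0 nM and 53.9 and 62.9 at 500 nM, a difference of 1.12 (SE 0.26, adjusted p = 0.0372 by edgeR). Outside the list, *Esco2*, which acetylates cohesin in S phase, had 33.9 and 30.4 CPM at 0 nM, 47.1 and 46.3 at 5 nM, 84.8 and 67.8 at 50 nM, and 63.7 and 89.6 at 500 nM. Its difference at 500 nM was 1.21 (SE 0.22, adjusted p = 0.0019 by edgeR).

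Summed over the 24 genes, the G2 and mitosis level was 2064 and 2000 CPM at 0 nM, 2123 and 2089 at 5 nM, 2895 and 2511 at 50 nM, and 2679 and 3370 at 500 nM. Its most abundant gene was *Cenpf*. In *Xist*-positive cells without Y-linked UMIs alone it was 1970 and 1903 CPM at 0 nM and 2582 and 3380 at 500 nM, and without marked doublets 2057 and 2012 at 0 nM and 2677 and 3396 at 500 nM. Both settings kept the explants at 500 nM above those at 0 nM, by about the same distance. In the first setting the second explant at 50 nM (2203 CPM) lay below the second at 5 nM (2315 CPM). For *Mki67* these explants then had 188 and 190 CPM. In *Xist*-positive cells without Y-linked UMIs *Mki67*, *Cenpf* and *Ccna2* still passed and *Kif23* did not, with a log2 difference of 1.14 (adjusted p = 0.231 by edgeR).

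The share of cells with an *Mki67* UMI, thinned to 3000 UMIs a cell with 1466 cells kept and 225 left out, was 23.2% and 23.9% at 0 nM, 25.4% and 23.6% at 5 nM, 33.3% and 25.7% at 50 nM, and 30.1% and 42.4% at 500 nM. Unthinned, it was 25.6% and 29.5% at 0 nM and 33.0% and 50.1% at 500 nM. Photoreceptors of the 8 explants held an *Mki67* UMI in 5.11% of thinned cells. Their median was 2642.5 UMIs, so most of them fell below 3000 and that share covers only the deeper ones. Every explant at 500 nM was above every one at 0 nM, and the second at 500 nM was the highest of all.

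No gene of DNA replication passed by edgeR at any dose. Of 25 tested, 4 had an unadjusted p under 0.05 at 500 nM, and their median difference at 500 nM was 0.02. Summed, they stood at 2665 and 2166 CPM at 0 nM and 2788 and 2343 at 500 nM, where the explants of each dose interleaved. The D cyclins, their partners and inhibitors also gave no call among 13 genes, with 4 at an unadjusted p under 0.05 and a median of 0.02. *Ccnd1* had 2230 and 2098 CPM at 0 nM and 2489 and 2292 at 500 nM, a difference of 0.09 (SE 0.09, adjusted p = 0.841 by edgeR). Of the listed histone genes, 1 of 15 passed, *Hist1h2ap*, which rose from 135 and 73.3 CPM to 175 and 240 (0.91, SE 0.20, adjusted p = 0.0207 by edgeR). Its copies are nearly identical, so reads may be split among them.

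Promoters of the genes on the G2 and mitosis list were read from RefSeq, since they carry short elements known from cell cycle genes. The element TTTGAA, a form of the cell cycle homology region, was searched on both strands in the 300 bases from 250 before to 50 after the start. It was found in 15 of the 21 G2 and mitosis genes with a promoter, in 2 of 23 DNA replication genes, and in 20.2% of all 27025 genes. The E2F-type element, TTTGGCGC or TTTCGCGC, was found in 1 of 21, 9 of 23 and 0.929% in the same order. CCAAT was found in 19 of 21, 14 of 23 and 41.1%. Shown are 180 bases, from 150 before to 30 after the start, for 3 genes that passed at 500 nM (GRCm38.p6, given from 5′ to 3′ on the gene's strand), with TTTGAA in capitals.
Mki67, chr7:135716350-135716529, minus strand: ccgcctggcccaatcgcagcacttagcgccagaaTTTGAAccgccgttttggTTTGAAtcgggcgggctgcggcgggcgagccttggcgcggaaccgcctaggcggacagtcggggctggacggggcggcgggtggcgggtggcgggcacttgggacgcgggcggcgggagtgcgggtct
Cenpf, chr1:189688057-189688236, minus strand: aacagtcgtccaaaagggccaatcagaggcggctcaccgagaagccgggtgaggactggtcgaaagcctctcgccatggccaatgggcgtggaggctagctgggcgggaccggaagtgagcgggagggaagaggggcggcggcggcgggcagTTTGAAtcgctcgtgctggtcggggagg
Kif23, chr9:61946770-61946949, minus strand: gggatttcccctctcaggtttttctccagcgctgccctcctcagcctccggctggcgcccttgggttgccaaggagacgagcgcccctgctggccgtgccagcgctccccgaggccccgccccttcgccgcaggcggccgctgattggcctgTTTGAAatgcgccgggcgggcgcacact
The Mki67 promoter held a pair of matches, beginning 116 and 98 bases before the start. In Cenpf and Kif23 the match began at base 3 of the transcript. A match describes the letters only, and binding was not measured.

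**Figure D3:**
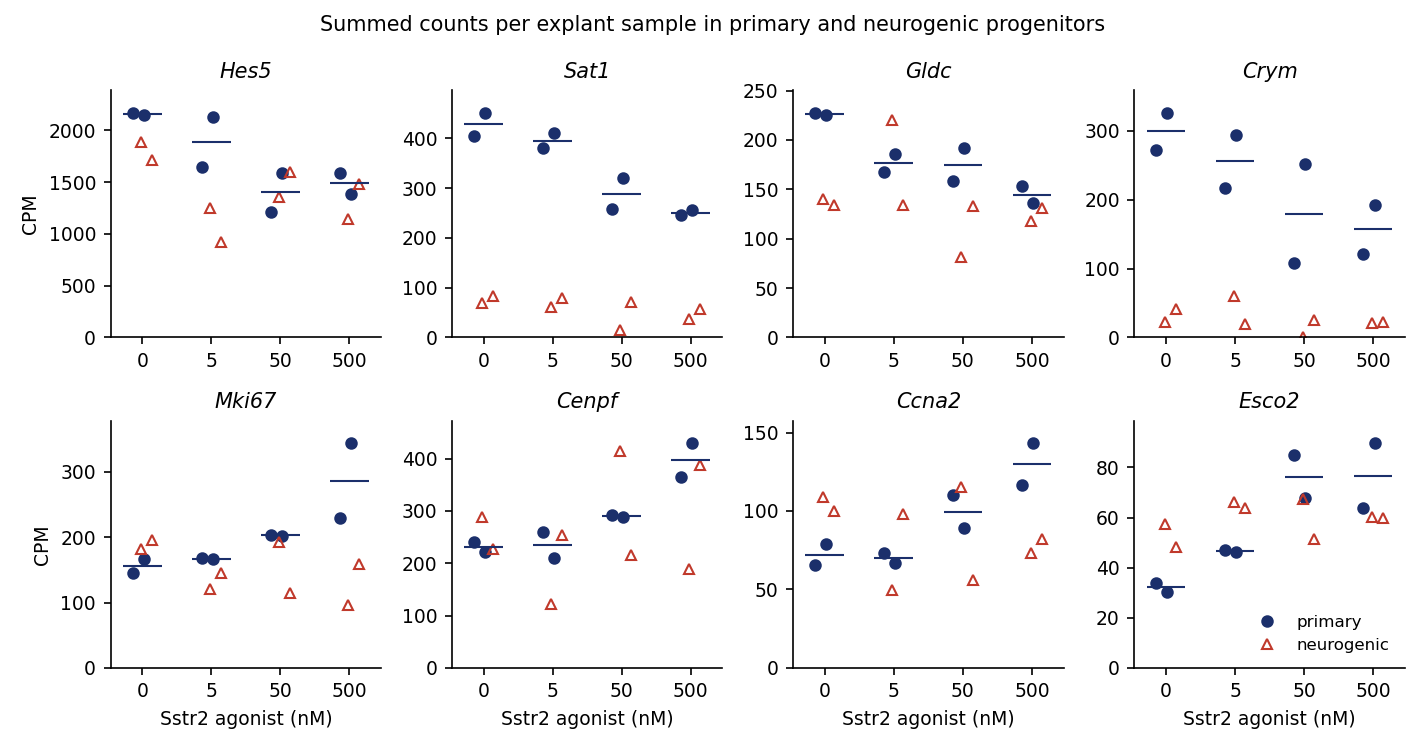
Levels of 8 genes for each explant, in CPM, by agonist dose in nM, in primary progenitors (filled points, with lines at the mean of the 2 explants) and in neurogenic progenitors (open triangles). Mki67, Cenpf, Ccna2 and Esco2 are higher at 500 nM than at 0 nM in both explants, and Hes5, Sat1, Gldc and Crym are lower in both in primary progenitors.

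*Hes5*, a repressor activated by Notch, fell at the higher doses. It had 2166 and 2147 CPM at 0 nM, 1649 and 2129 at 5 nM, 1210 and 1590 at 50 nM, and 1585 and 1387 at 500 nM. All 4 explants at 50 and 500 nM lay below the other 4. The log2 difference was -0.65 at 50 nM (SE 0.12, adjusted p = 0.021 by edgeR), where it was the sole gene to pass, and -0.59 at 500 nM (SE 0.12, adjusted p = 0.00496 by edgeR). In *Xist*-positive cells without Y-linked UMIs the levels were 2240 and 2024 CPM at 0 nM, 1668 and 1863 at 5 nM, 1093 and 1812 at 50 nM, and 1605 and 1396 at 500 nM. The second explant at 50 nM then lay above the first at 5 nM. The call at 500 nM was kept in these cells and that at 50 nM was lost. With the *Xist*-positive share of each explant as a covariate the difference at 500 nM was -0.22 (adjusted p = 0.964 by edgeR), and the call was lost. *Hes5* was the 1 call among 14 Notch genes at 500 nM, where the list had a median of -0.16. Both explants were below both at 0 nM for 3 of the 14, close to the 14.9% of all genes, and above for 1. *Hes1* had 223 and 272 CPM at 0 nM and 270 and 190 at 500 nM (-0.16, SE 0.17, adjusted p = 0.841 by edgeR), and *Notch1* 231 and 199 against 230 and 264.

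The Hes5 gene lies at chr4:154960923-154962371 on the plus strand. Its 250 bases before the start (RefSeq, GRCm38.p6) are shown because the Notch-dependent factor Rbpj is known for binding GTGGGAA, which is in capitals on either strand.
Hes5, chr4:154960673-154960922, plus strand: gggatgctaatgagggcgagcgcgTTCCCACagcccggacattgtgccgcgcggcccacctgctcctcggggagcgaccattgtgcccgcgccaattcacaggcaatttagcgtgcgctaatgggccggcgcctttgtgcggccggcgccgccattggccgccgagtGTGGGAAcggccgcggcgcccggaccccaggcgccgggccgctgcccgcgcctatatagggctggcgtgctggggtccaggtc
The pair of matches began 226 and 83 bases before the start. The same letters were found in 3 of 14 Notch pathway promoters and in 7.25% of all 300-base promoters.

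Further genes that were lower at 500 nM were *Sat1*, *Rlbp1*, *Crym*, *Gldc* and *Cnp*. *Sat1*, an X-linked enzyme of polyamine breakdown, had 405 and 451 CPM at 0 nM, 380 and 410 at 5 nM, 258 and 320 at 50 nM, and 245 and 256 at 500 nM. The levels at 50 and 500 nM did not overlap with those at 0 and 5 nM, and the difference at 500 nM was -0.82 (SE 0.13, adjusted p = 0.00024 by edgeR). Since *Sat1* lies on the X chromosome, its level in *Xist*-positive cells without Y-linked UMIs is given as well, 398 and 447 CPM at 0 nM, 377 and 416 at 5 nM, 237 and 390 at 50 nM, and 245 and 252 at 500 nM. There the second explant at 50 nM lay above the first at 5 nM, while both at 500 nM stayed below all at 0 and 5 nM. *Rlbp1* had 92.7 and 69.8 CPM at 0 nM, 70.7 and 71.3 at 5 nM, 52.3 and 75.3 at 50 nM, and 38.8 and 48.2 at 500 nM, a difference of -0.96 at 500 nM (SE 0.20, adjusted p = 0.0119 by edgeR). *Crym*, a thyroid hormone-binding protein that is no lens crystallin, had 273 and 326 CPM at 0 nM, 217 and 294 at 5 nM, 108 and 251 at 50 nM, and 121 and 193 at 500 nM (-0.96, SE 0.21, adjusted p = 0.017 by edgeR). The first explant at 50 nM was the lowest for *Crym*, below both at 500 nM.

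*Gldc*, which encodes glycine decarboxylase, had 227 and 225 CPM at 0 nM and 153 and 136 at 500 nM (-0.71, SE 0.15, adjusted p = 0.0134 by edgeR). *Cnp*, a phosphodiesterase best known from myelin, had 164 and 129 CPM at 0 nM and 99.3 and 84.3 at 500 nM (-0.76, SE 0.18, adjusted p = 0.0344 by edgeR). In *Xist*-positive cells without Y-linked UMIs *Sat1*, *Rlbp1* and *Gldc* still passed, whereas *Crym* (-0.67, adjusted p = 0.43 by edgeR) and *Cnp* (-0.65, adjusted p = 0.408 by edgeR) did not. *Gldc* and *Cnp*, like *Ttc28*, belong to no list and are named after their values were seen. *Ttc28*, at 50.9 and 39.4 CPM at 0 nM, rose to 94.9 and 93.7 at 500 nM (0.97, SE 0.19, adjusted p = 0.00424 by edgeR).

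Across the 12 glial and late progenitor genes tested, *Rlbp1* and *Crym* were the 2 calls, and the list's median was -0.04, close to that of all genes. *Glul*, the glutamine synthetase of glia, had 296 and 249 CPM at 0 nM and 257 and 235 at 500 nM, and *Vim* had 487 and 519 at 0 nM and 461 and 627 at 500 nM, so these overlapped. The progenitor transcription factors gave 1 call among 19, *Hes5*, with a median of 0.01. Of the 19, 6 had an unadjusted p under 0.05 by edgeR, where 8.63% of all genes did. Both explants at 500 nM were below both at 0 nM for 5 of them and above for 2. None of the 5 markers passed (1 at an unadjusted p under 0.05). The lists for Hedgehog (8 tested), FGF and Wnt (13), glycolysis and hypoxia (17), immediate early response (11), stress and unfolded protein response (9), somatostatin signaling (4) and mitochondrially encoded genes (13) gave no call at 500 nM by edgeR, with 0, 2, 5, 3, 0, 0 and 0 genes at an unadjusted p under 0.05. Their medians lay between -0.11, for glycolysis and hypoxia, and 0.23, for the immediate early genes. Over all genes tested, 8.63% had an unadjusted p under 0.05 by edgeR. Both explants at 500 nM were below both at 0 nM for 7 of the 17 glycolysis and hypoxia genes, against 14.9% of all genes. For 5 of the 11 immediate early genes both were above, against 22.8% of all genes.

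**Figure D4:**
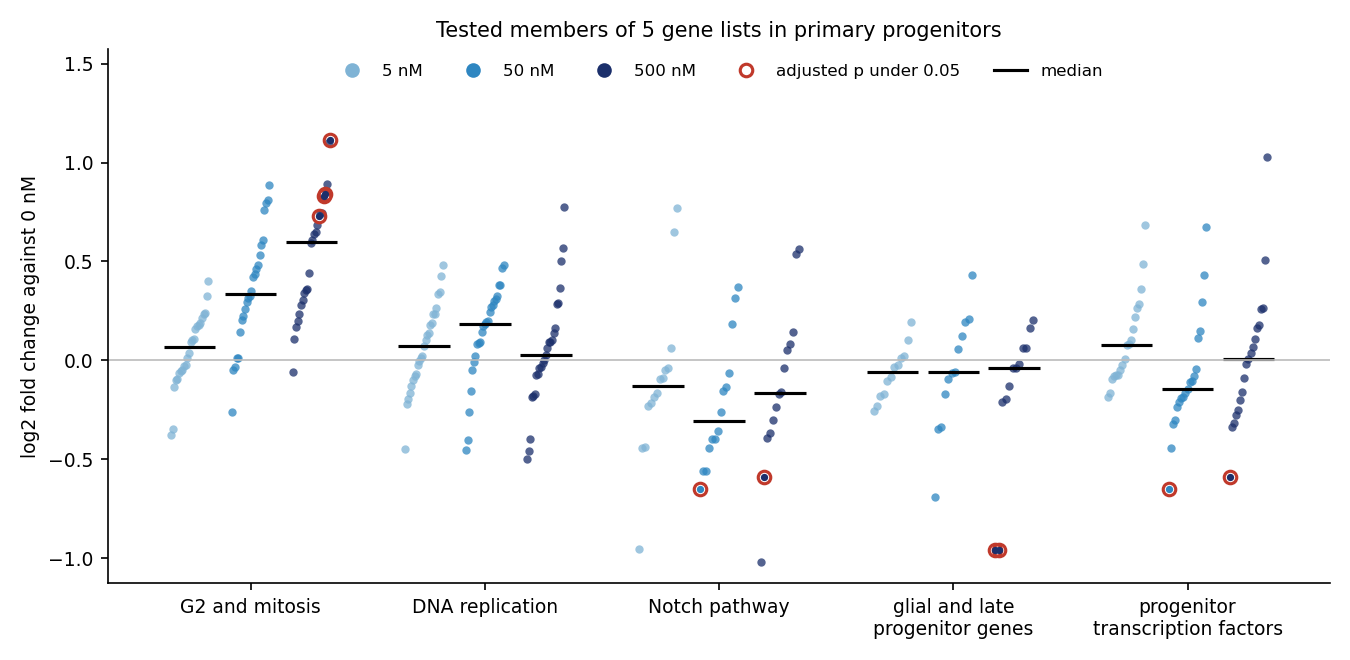
Log2 difference from 0 nM at 5, 50 and 500 nM for each tested gene of 5 lists in primary progenitors (points), with the list's median (line) and genes past an adjusted p of 0.05 ringed. The median of G2 and mitosis genes stands at 0.60 at 500 nM and that of DNA replication genes at 0.02.

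Genes known from other retinal types were also read in these cells. Whether their transcripts came from other cells was not tested. *Gngt2*, a cone transducin subunit, had 13.6 and 19.7 CPM at 0 nM, 57.6 and 36.0 at 5 nM, 7.21 and 25.1 at 50 nM, and 44.2 and 90.3 at 500 nM (2.08, SE 0.35, adjusted p = 0.000389 by edgeR). *Atoh7* had 20.4 and 8.94 CPM at 0 nM, 18.3 and 27.4 at 5 nM, 5.41 and 22.3 at 50 nM, and 23.7 and 117 at 500 nM (2.22, SE 0.45, adjusted p = 0.00684 by edgeR). Both were highest in the second explant at 500 nM, which carried most of the marked doublets. The *Atoh7* value of the first explant at 500 nM lay within the range of the lower doses. Without the second explant at 500 nM the differences were 0.55 for *Atoh7* (adjusted p = 0.925 by edgeR) and 1.44 for *Gngt2* (adjusted p = 0.0575 by edgeR), and neither passed. Summed, the 12 photoreceptor genes stood at 140 and 182 CPM at 0 nM, 233 and 233 at 5 nM, 170 and 216 at 50 nM, and 213 and 370 at 500 nM, with *Otx2* the most abundant, *Gngt2* the 1 call among 7 tested and a median of 0.80. In photoreceptors themselves the sum was 6415 CPM. Without marked doublets it was 291 CPM in the second explant at 500 nM and 111 and 175 at 0 nM, and both genes passed in that setting.

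The list of amacrine and horizontal genes (5 tested) gave no call at 500 nM by edgeR, with 1 gene at an unadjusted p under 0.05, and neither did the ganglion cell list (6 tested, also 1). No pigment epithelium gene reached the filter, and their sum was at most 10.97 CPM in any explant. Of the microglial, endothelial and blood genes, 8 of the 9 in the file did not reach the filter, and *Kdr*, a VEGF receptor that retinal progenitors also express, had 224 CPM as its mean and no call. At 5 nM the single gene past the threshold was *Sncg*, a synuclein of ganglion cells (adjusted p = 0.00347 by edgeR). It had 1 UMI in each explant at 0 nM, 4 and 58 at 5 nM, 7 and 9 at 50 nM, and 11 and 14 at 500 nM. Scaled to depth these were 1.13 and 1.79 CPM at 0 nM, 10.5 and 35.3 at 5 nM, 12.6 and 8.36 at 50 nM, and 11.9 and 9.37 at 500 nM, so all 6 explants with agonist lay above both at 0 nM and the second at 5 nM was the highest.

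Along dose on the same log scale, fitted over the 8 explants, 45 genes passed by edgeR (0.529%), 33 rising (0.388%) and 12 falling (0.141%), with 841 (9.88%) at an unadjusted p under 0.05. The 15 with the smallest p were 8 crystallins, *Sat1*, *Cenpf*, *Mki67*, *Ccna2*, *Esco2*, *Hes5* and *Xist*. *Sat1* fell by 0.33 log2 units per unit of log10 dose (SE 0.05, adjusted p = 2.18e-05 by edgeR), and *Mki67* rose by 0.32 (SE 0.05, adjusted p = 0.000531 by edgeR). Of the G2 and mitosis genes, 8 of 24 passed, all rising, which added *Kif11*, *Ube2c*, *Prc1* and *Tpx2* to the 4 found at 500 nM. All 24 had a slope above 0. The median slope was 0.21, against 0.00 over all genes.

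The 8 crystallins that rose by 4.77 to 5.85 log2 units at 500 nM rested on 3 cells. Crystallins are the structural proteins of the lens. Summed over 19 genes, they stood at 135 and 120 CPM at 0 nM, 113 and 155 at 5 nM, 148 and 157 at 50 nM, and 150 and 10938 at 500 nM. In the second explant at 500 nM, 3 of 369 annotated progenitors held 15693, 7987 and 3423 UMIs, of which 62.4%, 61.3% and 43.6% were crystallin UMIs. No other progenitor exceeded 0.493%. These 3 cells held 0, 1 and 0 *Ccnd1* UMIs, no *Sox2* and no *Fgf15* UMI, and 108, 65 and 35 UMIs of *Lim2*, a membrane protein of lens fibers. The third held 1 *Hes1* and 1 *Sfrp2* UMI, the other two none, so the markers of the annotation were nearly absent from them. Without them the second explant at 500 nM had 115 CPM of crystallins, no crystallin passed, and 33 genes did at 500 nM, of which 19 were shared with the 27, *Mki67*, *Cenpf*, *Ccna2*, *Kif23*, *Esco2*, *Hes5*, *Sat1*, *Gldc*, *Rlbp1*, *Crym* and *Cnp* among them.

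**Figure D5:**
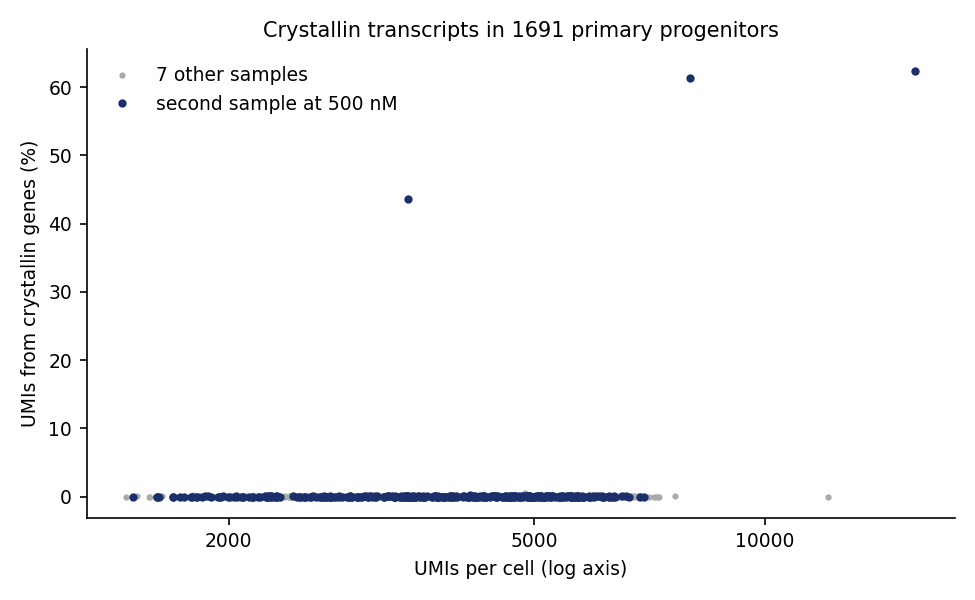
Percent of UMIs from 19 crystallin genes against UMIs per cell (log axis) for the 1691 annotated primary progenitors. The 3 cells of the second explant at 500 nM lie between 43.6% and 62.4%, and no other cell exceeds 0.493%.

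*Xist* and the Y-linked genes followed the sex of the cells. *Xist* had 1033 and 844 CPM at 0 nM, 1869 and 1072 at 5 nM, 1149 and 948 at 50 nM, and 2198 and 2221 at 500 nM. *Eif2s3y* had 38.4 and 51.9 CPM at 0 nM, and 1 and 0 UMIs at 500 nM. With the *Xist*-positive share as a covariate in the fit over all cells, no gene passed at 500 nM by edgeR and 452 had an unadjusted p under 0.05. The log2 differences were then 0.83 for *Mki67*, 1.24 for *Esco2* and -0.73 for *Sat1*, and 0.42 for *Cenpf*, -0.56 for *Crym* and -0.22 for *Hes5*. Restricted to *Xist*-positive cells without Y-linked UMIs, 22 of 6850 genes passed, 16 of them shared with the 27. Dose and sex of the explants were tied in this set, because both explants at 500 nM were of 1 kind, and they cannot be told apart by the covariate alone.

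The calls also leaned on single explants and on the tool. A fit without 1 explant left a single explant at its dose, whose spread was taken from the other groups. Without the second explant at 500 nM, 18 genes passed, among them *Cenpf*, *Hes5*, *Sat1*, *Rlbp1*, *Crym* and *Ttc28*, whereas *Mki67*, *Ccna2*, *Kif23*, *Esco2*, *Gldc*, *Cnp*, *Gngt2*, *Hist1h2ap* and *Atoh7* did not. The log2 differences of the latter were then 0.55 for *Mki67*, 0.69 for *Ccna2*, 1.01 for *Kif23*, 0.94 for *Esco2*, -0.59 for *Gldc*, -0.62 for *Cnp*, 1.44 for *Gngt2*, 0.64 for *Hist1h2ap* and 0.55 for *Atoh7*. Without either explant at 0 nM, which left 1 control assumed to vary like the other groups, 6 and 7 genes passed, and *Mki67*, *Cenpf*, *Ccna2*, *Kif23*, *Hes5*, *Rlbp1*, *Crym* and *Gldc* were not among them. Their differences kept their signs, at 0.66 (*Ccna2*) or more for those higher and at -0.59 (*Hes5*) or less for those lower. DESeq2 called *Sat1* alone.

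To see where primary and neurogenic progenitors of the same explants differed in their change at 500 nM, both were fitted together with the explant as a block, a comparison added after the data were seen. Of 7690 genes, 10 passed (0.130%), all with the higher difference in primary progenitors, and 484 (6.29%) had an unadjusted p under 0.05. Of the 10, 6 were crystallins. Without the 3 crystallin-rich cells 3 genes passed, *Mki67*, *Cdkn1c* and *Hist1h1b*. In neurogenic progenitors *Mki67* had 182 and 196 CPM at 0 nM, 121 and 145 at 5 nM, 192 and 115 at 50 nM, and 96.7 and 159 at 500 nM, so it was lower at 500 nM than at 0 nM there and higher in primary progenitors. The difference between the changes was 1.40 log2 units (SE 0.24, adjusted p = 0.000684 by edgeR). The DNA-packaging linker histone *Hist1h1b* had 545 and 333 CPM at 0 nM and 494 and 512 at 500 nM in primary progenitors, against 1095 and 1215 at 0 nM and 497 and 443 at 500 nM in neurogenic ones (1.44, SE 0.18, adjusted p = 2.38e-06 by edgeR). The cell cycle inhibitor *Cdkn1c* had 26.01 and 19.7 CPM at 0 nM and 14.0 and 36.8 at 500 nM in primary progenitors, against 69.3 and 65.4 at 0 nM and 5.23 and 6.64 at 500 nM in neurogenic ones (3.57, SE 0.62, adjusted p = 0.000803 by edgeR). For *Hes5* the change did not differ detectably between the types (-0.13, SE 0.14, adjusted p = 0.938 by edgeR), with 1889 and 1714 CPM at 0 nM and 1145 and 1486 at 500 nM in neurogenic progenitors.

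Primary progenitors of freshly taken P0 retinas in the same series, 2797 cells in 5 retinas of 3 *Sstr2* genotypes, give the levels that these genes have outside culture. The libraries were prepared separately and differ in depth, genotype and strain (C57BL/6 / CD1 at P0, CD1 in explants), so the values are set side by side without a test. *Mki67* had a median of 436 CPM over the P0 retinas (411 to 473) and of 185 over the explants (146 to 344). *Ccnd1* had 3922 (3702 to 3996) against 2347 (2098 to 2489), and *Hes1* 778 (727 to 891) against 217 (165 to 272). *Hes5* lay the other way, with 1056 (845 to 1188) at P0 against 1619 (1210 to 2166) in explants. *Sfrp2* was also lower at P0, with 59.8 (54.9 to 84.5) against 136 (100.2 to 186). The ranges of these genes at P0 and in explants did not overlap. The other markers of the annotation overlapped, *Sox2* with 296 (255 to 308) against 328 (280 to 368) and *Fgf15* with 133 (103 to 134) against 110 (76.2 to 154).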

How the data were processed

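Single cells of 8 retinal explant samples were measured in 1 droplet library. Per the labels' processing notes, the submitters used Cell Ranger 3.1.0, Seurat 3 and the mm10 build. The authors assigned cells to samples with deMULTIplex, clustered them after SCTransform in Seurat and deposited a cell type for each cell. The deposited counts are raw UMI counts per gene and cell (18823 genes), without normalization by the authors. The deposited explant cells held 1001 to 2499 genes each. The deposited SCTransform values, which are natural log values, were not used.

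From these files, counts of the cells annotated as progenitors were summed per explant. The samples' groups were taken from the deposited dose and replicate of each cell. Sums were tested with edgeR 4.0.16 in R 4.3.3 (TMM normalization, its filter on low counts, quasi-likelihood test, Benjamini-Hochberg adjustment, threshold 0.05), with all 8 explants in 1 fit, which left 8514 genes. Shares by dose were tested by exact permutation over 2520 arrangements. Alternatives were DESeq2 1.42.0, its size factors in edgeR, no filter on low counts, the Xist-positive share as a covariate, removal of doublets marked by Scrublet (scanpy 1.11.5), and leaving out each explant. Removal of cells with 10% or more crystallin UMIs, restriction to Xist-positive cells without Y-linked UMIs, and the joint fit with neurogenic progenitors were chosen after seeing the data. The pseudocount for ratios between cell types was 1 CPM.

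The cell type, its gene lists and the tests were chosen with earlier results of these data known. Genes were named by a rule: per dose comparison at most 15 past the threshold by adjusted p, then the 5 largest rises and 5 largest falls among genes with at least 50 UMIs whose explants did not overlap, the members of the lists, and against other cell types the 15 highest and 10 lowest genes of 50 CPM or more. By that rule the largest rises at 500 nM were crystallins, and the largest falls were Eif2s3y, Ddx3y, Gm10320, Uty and Sct. Of the genes named by the rule, 1 is not reported here.

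On simulated counts with 200 genes changed 4-fold, edgeR recovered 88.0% among 8514 genes at 500 nM with 12 false calls, DESeq2 73.5% with 0, and the joint fit 61.5% among 7690 genes with 6. A 4-fold change is larger than that found for most genes called at 500 nM outside the crystallins and Y-linked genes. The simulated explants also lacked the tie of dose to sex, so these rates do not describe the calls in the data. Python 3.11.15 with numpy 2.4.6, scipy 1.17.1, pandas 2.3.3 and matplotlib 3.10.9 served for the rest. Gene positions were those of GENCODE M21 on GRCm38, and promoters those of RefSeq on GRCm38.p6. Antisense and overlapping genes were not separated beyond the deposited counts.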

Additional observations from a re-analysis of the deposited data

Results flagged for a closer look

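Some genes changed differently at 500 nM in primary than in neurogenic progenitors of the same explants, by the test of the difference itself in the joint edgeR fit. The log2 difference between the changes was 1.44 for Hist1h1b, 1.40 for Mki67, 3.57 for Cdkn1c and 1.35 for Atad2 (adjusted p = 0.0457 by edgeR). Atad2, an ATPase of chromatin, had 104 and 59.0 CPM at 0 nM and 112 and 149 at 500 nM in primary progenitors, and 125 and 131 against 73.2 and 75.3 in neurogenic ones. The same test gave 5.55 for Cryge, 6.71 for Crygd, 4.85 for Cryaa, 6.46 for Crygc, 3.91 for Cryba1 and 5.32 for Crybb1. These 6 crystallins had between 385 CPM (Crygc) and 2251 CPM (Cryge) in primary progenitors of the second explant at 500 nM, where the 3 crystallin-rich cells lay. Without those 3 cells Mki67, Cdkn1c and Hist1h1b passed.

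For Ccna2 and Kif23 both explants at 500 nM were above both at 0 nM in primary progenitors and below both in neurogenic ones. Ccna2 had 109 and 99.8 CPM at 0 nM and 73.2 and 81.9 at 500 nM in neurogenic progenitors, and Kif23 had 53.5 and 55.1 against 44.5 and 50.9. The differences between the changes were 1.28 for Ccna2 (adjusted p = 0.102 by edgeR) and 1.28 for Kif23 (adjusted p = 0.481 by edgeR), and neither passed.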

How the results depend on the processing

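At 500 nM, 27 genes passed by edgeR. DESeq2 called 1 (with 170 at an unadjusted p under 0.05), no filter on low counts 67, the Xist-positive share as a covariate 0 (452), and leaving out each explant between 6 and 241. DESeq2's size factors gave 29 and removal of marked doublets 29. Along dose, where 45 passed, DESeq2 called 5, no filter 88, the covariate 7, Xist-positive cells without Y-linked UMIs 21, and leaving out each explant between 6 (without the second at 500 nM) and 109. At 50 nM, against 1 call, DESeq2, the covariate and Xist-positive cells gave 0 each, no filter 6, removal of the crystallin-rich cells 7, and leaving out each explant between 0 and 13. At 5 nM, against 1 call, DESeq2 and Xist-positive cells gave 0 each, no filter 6, removal of the crystallin-rich cells 6, and leaving out each explant between 0 and 14. In the joint fit with neurogenic progenitors, against 10 calls, DESeq2 gave 1, removal of the crystallin-rich cells 3, and leaving out each explant between 3 and 21.

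Signs reversed for Cryaa at -0.14, Cryba1 at -0.54, Crybb1 at -0.49 and Crygd at -0.68 without the crystallin-rich cells, for Cryaa at -0.43 and Cryba1 at -0.23 without the second explant at 500 nM (against 6.35 and 5.69 without the first), and for Ddx3y at 1.33 with the covariate. The cause of the reversal of Ddx3y was not tested. The relation of the primary share with dose had r = 0.57 on untransformed dose (exact permutation p = 0.145), and between 0.71 and 0.93 without each explant. The share of all cells did not pass over the 8 explants, with r of 0.65 (p = 0.0782) and rho of 0.73 (p = 0.0548) by exact permutation. Its r lay between 0.48 and 0.82 without each explant, with exact permutation p = 0.00476 without the second explant at 5 nM and 0.0444 without the first at 500 nM.

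No paired analysis was possible because the replicate numbers within a dose do not tie explants of different doses to a shared animal, litter or culture. With 2 explants a dose and sums of 382029 to 1640797 UMIs, genes of few UMIs were measured with little precision, and UMI intervals would cover counting error only.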
